A study of Mus musculus with 6 samples.

Results

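The 35 genes described here encode the B-cell receptor, the enzymes that pass on its signal and the surface proteins and transcription factors of mature B cells, and they were chosen by name for these functions from a table of 34709 genes. The table held RNA-seq of mouse articular cartilage from 3 KO libraries and 3 wildtype (WT) libraries, and the question was what loss of the targeted gene changes in the cartilage of aged animals. Both groups were aged mice, 18 months old as the study describes the sequenced cartilage, and its methods name male littermates for the aged animals. The KO mice were a commercial germline knockout on C57BL/6J, and the labels name no treatment. The labels do not say whether a library came from 1 animal or from pooled animals, so p-values measure only the spread between these samples, which may be technical.

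Each gene had a deposited level in FPKM (FPKM counts the fragments of a gene relative to transcript length and library size) and an estimated read count. Counts per library summed to between 52268311 and 63331135, at which 3 counts, the least taken as detectable, correspond to between 0.0474 and 0.0574 CPM (counts scaled to library size), and the lowest count of a member in a library was 143. KO replicates 2 and 3 differed far less than any other pair of libraries (Pearson r of log2(FPKM + 1) across genes of 0.996, against 0.980 to 0.990 for the other 14 pairs), and the median squared difference between their counts was 5.77 times what read sampling alone gives, against at least 23.8 times for the other pairs. KO replicate 1 correlated less closely with KO replicates 2 and 3 (r = 0.9813 for each) than with any WT library. Its r was 0.9889 with WT replicate 2 and 0.9860 with WT replicate 3, but only 0.9816 with WT replicate 1. The difference of KO replicates 2 and 3 exceeded sampling noise, but they may share a source, so they were averaged and counted as 1 sample, which left 2 KO and 3 WT samples, and the fit to all 6 libraries as labelled is given beside it. Upon checking the tissue label, cartilage genes were present but low beside neutrophil genes. The 15 listed chondrocyte markers summed to between 663 and 1475 FPKM per library, and 12 neutrophil markers to between 27063 and 62544 FPKM. Singly, Col2a1, the main cartilage collagen, ranged from 12.4 to 21.3 FPKM and Acan, the cartilage proteoglycan, from 13.2 to 22.8 FPKM. S100a9 of neutrophils ranged from 11637 to 27817 FPKM. Matn3 and Matn1, matrix proteins of cartilage, were listed at 0 in 3 and 2 libraries, respectively, and did not exceed 0.202 FPKM in any.

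On a B cell, membrane immunoglobulin is carried to the surface by the Cd79a and Cd79b chains, whose cytoplasmic motifs are phosphorylated by Src-family kinases when antigen binds. Syk, Btk and the adaptor Blnk then assemble around phospholipase C gamma 2, which releases calcium and activates NF-κB and NFAT, while co-receptors lower the threshold and inhibitory receptors raise it. B cells develop in the bone marrow next to the joint surface, and many of the enzymes of this pathway also work in neutrophils, macrophages and platelets, which carry no B-cell receptor. The members were accordingly split into 20 genes used mainly by B cells (B-cell centred) and 15 that other blood or tissue cells also use. In a bulk sample, fewer cells of a type and less RNA per cell cannot be told apart.

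Of the 35 members, 30 had a lower level in KO than in WT cartilage and 16 of these had a log2 difference (KO minus WT) below −1. The median log2 difference of the members was −0.91, beside −0.016 over all 15373 genes tested. No member passed an adjusted p of 0.05 in edgeR's quasi-likelihood test on the 5 samples, and neither did any other gene (0.0% of genes tested), the smallest adjusted p being 0.0718. At an unadjusted p under 0.05, edgeR called 24 members lower (6.12% of all genes tested were called lower) and 1 member higher (7.62% of all genes). With all 6 libraries as labelled, edgeR called 15 members lower at an adjusted p under 0.05 and none higher, beside 1.46% of all genes lower and 2.74% higher. DESeq2 on the 5 samples called 19 members lower and none higher, beside 2.27% and 3.45% of all genes. In 26 members all 3 KO libraries lay below all 3 WT libraries, as in 13.7% of all genes, and in 1 member they lay above, as in 11.3%.

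**Figure D1:**
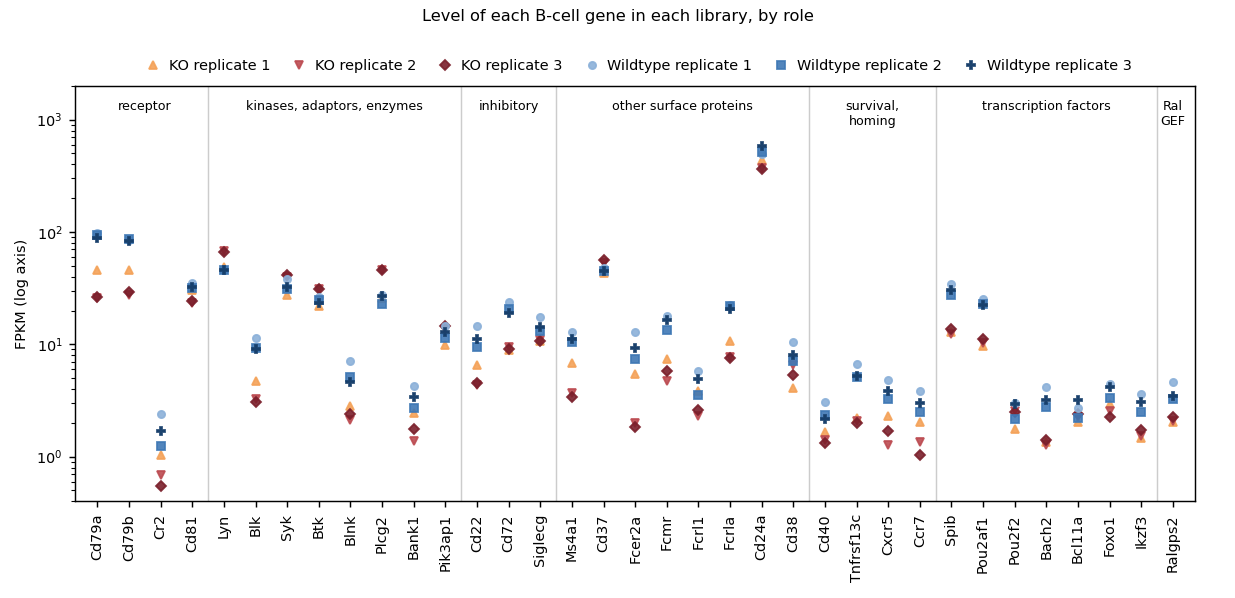
Level of each of the 35 members (x axis, grouped by role) in the 6 libraries, in FPKM on a log axis (y axis), with 1 marker per library and the KO and WT libraries distinguished by colour. The KO markers lie under the WT markers in 26 genes and over them in 1 gene, Lyn.

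By breadth of use, all 20 B-cell centred genes were below 0, with a median log2 difference of −1.18, 18 of them at an unadjusted p under 0.05 (edgeR) and 13 at an adjusted p under 0.05 in the 6 libraries. Of the 15 genes that other cells also use, 10 were below 0 and 5 above, with a median of −0.29, and 6 were lower and 1 higher at an unadjusted p under 0.05. Over all genes tested, 6.12% were lower and 7.62% higher at that threshold (edgeR, 5 samples). At an adjusted p under 0.05 in the 6 libraries, 1.46% were lower. The division was made with earlier results of these data known, so the counts describe the genes and no test was made between the classes.

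Throughout, levels are given for replicates 1, 2 and 3 of a group in that order. Where groups are said not to overlap, the share over all genes tested was 13.7% for KO below WT and 11.3% for KO above WT. Cd79a, the immunoglobulin alpha chain (chr7:24897381-24902197), was at 45.6, 26.1 and 26.3 FPKM in the KO libraries and 98.3, 94.2 and 87.6 FPKM in the WT libraries. Its partner Cd79b, the beta chain (chr11:106311341-106314762), was at 45.5, 27.6 and 29.4 FPKM in KO and 85.6, 85.9 and 83.3 FPKM in WT. All KO libraries were thus well below all WT libraries for both chains, and KO replicate 1 was the highest of the KO libraries. With KO replicates 2 and 3 as 1 sample, the WT mean of Cd79a was 93.4 ± 5.41 FPKM (SD, n = 3) and the KO mean was 35.9 ± 13.7 FPKM (SD, n = 2). The log2 difference was −1.35 (SE 0.26, edgeR adjusted p = 0.148) for Cd79a and −1.17 (SE 0.228, edgeR adjusted p = 0.148) for Cd79b. The ratio of Cd79a to Cd79b FPKM was 1.0, 0.94 and 0.89 in KO and 1.15, 1.10 and 1.05 in WT, so the alpha chain was slightly lower relative to the beta chain in every KO library.

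Of the co-receptor genes, Cr2, the complement receptor CD21 that lowers the threshold for antigen, was at 1.03, 0.686 and 0.545 FPKM in KO and 2.39, 1.25 and 1.70 FPKM in WT. Its groups did not overlap and the log2 difference was −1.06 (SE 0.338, edgeR adjusted p = 0.236). Cd81, a tetraspanin of the same complex that most cell types carry, was at 30.4, 23.2 and 24.5 FPKM in KO and 35.2, 31.7 and 32.5 FPKM in WT. The groups did not overlap here either, but KO replicate 1 lay within 1.3 FPKM of the lowest WT library and the log2 difference was −0.26 (SE 0.162, edgeR adjusted p = 0.571).

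The kinases, adaptors and enzymes were the most mixed role, with 4 of 8 members below 0, 4 above and a median log2 difference of −0.033. Blk, a Src-family kinase of B cells, was at 4.75, 3.25 and 3.04 FPKM in KO and 11.4, 9.28 and 9.09 FPKM in WT, a log2 difference of −1.30 (SE 0.236, edgeR adjusted p = 0.148). Blnk, the adaptor that brings phospholipase C gamma 2 to Btk, was at 2.80, 2.13 and 2.41 FPKM in KO and 7.06, 5.15 and 4.58 FPKM in WT, a log2 difference of −1.11 (SE 0.222, edgeR adjusted p = 0.148). Bank1, a scaffold for the calcium signal, was at 2.42, 1.38 and 1.77 FPKM in KO and 4.28, 2.73 and 3.37 FPKM in WT, a log2 difference of −0.75 (SE 0.26, edgeR adjusted p = 0.263). For each of these 3 B-cell centred members, every KO library lay below every WT library.

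Lyn, the Src-family kinase that myeloid cells also use, was at 48.9, 67.7 and 67.0 FPKM in KO and 45.8, 46.2 and 45.6 FPKM in WT. It was the only member whose KO libraries all lay above its WT libraries, with a log2 difference of 0.35 (SE 0.154, edgeR adjusted p = 0.375). Plcg2, phospholipase C gamma 2, was at 26.1, 46.0 and 45.7 FPKM in KO and 27.6, 22.6 and 26.9 FPKM in WT. KO replicate 1 lay within the WT range, and the log2 difference of 0.49 (SE 0.207, edgeR adjusted p = 0.354) became 0.80 without KO replicate 1 and 0.10 without KO replicates 2 and 3.

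Syk, the kinase that docks on the phosphorylated receptor, was at 27.5, 39.9 and 41.1 FPKM in KO and 37.8, 31.1 and 32.3 FPKM in WT. Btk, the Tec-family kinase activated next, was at 21.9, 30.9 and 31.3 FPKM in KO and 26.5, 24.7 and 23.3 FPKM in WT. For both kinases KO replicate 1 was below every WT library and KO replicates 2 and 3 were above, so the log2 differences were 0.02 (SE 0.181) for Syk and 0.10 (SE 0.154) for Btk, and the sign turned in some of the alternatives. Pik3ap1, the adaptor BCAP that links the receptor to PI3-kinase, had a log2 difference of −0.09 (SE 0.162, edgeR adjusted p = 0.897).

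**Figure D2:**
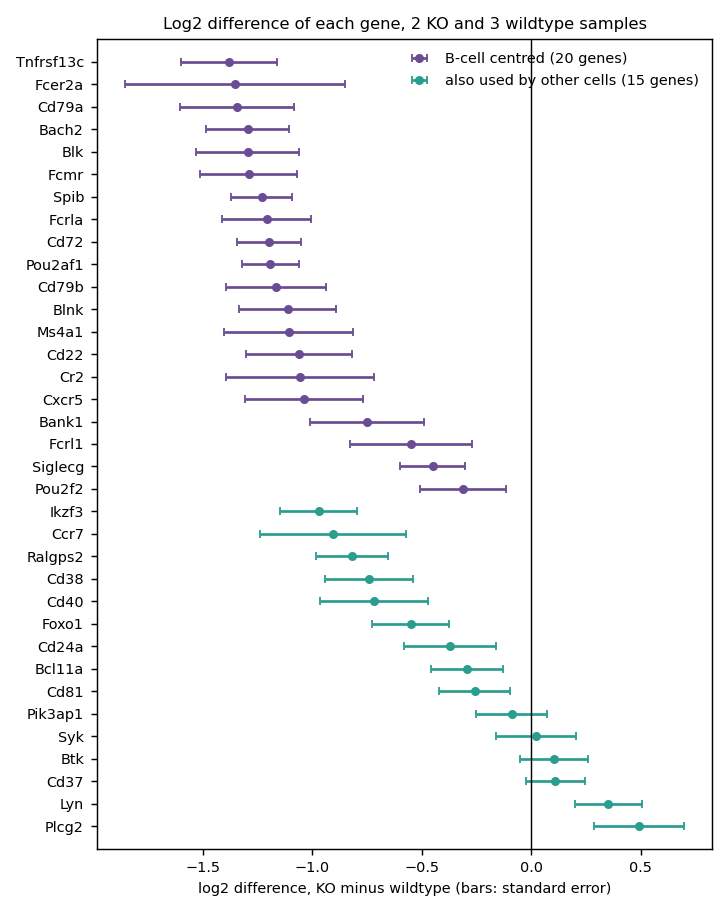
Log2 difference (KO minus WT) of each of the 35 members from edgeR on the 5 samples (x axis), with bars of 1 SE, ordered and coloured by breadth of use. The B-cell centred members all lie below 0, whereas members above 0 (Lyn, Plcg2, Syk, Btk and Cd37) are among the genes that other cells also use.

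The 3 inhibitory receptors, which carry motifs that recruit phosphatases to the receptor, were all lower in KO. Cd72 (chr4:43446462-43454628) was at 8.93, 9.43 and 9.16 FPKM in KO and 24.0, 20.7 and 18.9 FPKM in WT. Here the KO libraries lay close together, and the log2 difference of −1.20 (SE 0.146) had an edgeR adjusted p of 0.0718, which ranged from 1.59e-10 to 0.294 over the alternatives. Cd22, a sialic-acid-binding lectin, was at 6.49, 4.32 and 4.51 FPKM in KO and 14.5, 9.38 and 11.2 FPKM in WT, a log2 difference of −1.06 (SE 0.242, edgeR adjusted p = 0.151). Siglecg, its relative of the same family, was at 10.8, 11.0 and 10.7 FPKM in KO and 17.7, 13.2 and 14.1 FPKM in WT, a smaller log2 difference of −0.45 (SE 0.148, edgeR adjusted p = 0.248). The groups did not overlap for any of the 3 genes, with KO below WT as in 13.7% of all genes.

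Of the 8 other surface proteins, 7 had log2 differences below 0. In 6 of them every KO library lay below every WT library, as in 13.7% of all genes. Ms4a1, which encodes CD20, was at 6.86, 3.67 and 3.39 FPKM in KO and 12.8, 10.5 and 11.2 FPKM in WT, a log2 difference of −1.11 (SE 0.294, edgeR adjusted p = 0.184). Fcer2a, the low-affinity IgE receptor CD23 of mature follicular B cells, was at 5.49, 2.00 and 1.83 FPKM in KO and 12.8, 7.47 and 9.22 FPKM in WT. Its log2 difference of −1.35 (SE 0.504, edgeR adjusted p = 0.326) had the largest standard error of the members, and became −2.38 without KO replicate 1 and −0.75 without KO replicates 2 and 3. Both genes mark mature cells, and for both KO replicate 1 lay between the WT libraries and the other KO libraries.

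Fcmr, the receptor for IgM, was at 7.39, 4.74 and 5.76 FPKM in KO and 17.9, 13.3 and 16.3 FPKM in WT, a log2 difference of −1.29 (SE 0.221, edgeR adjusted p = 0.148). Fcrla, an intracellular Fc-receptor-like protein of B cells, was at 10.7, 7.64 and 7.50 FPKM in KO and 22.2, 22.0 and 20.5 FPKM in WT, a log2 difference of −1.21 (SE 0.202, edgeR adjusted p = 0.148). Cd38, an ectoenzyme that consumes NAD, was at 4.10, 6.54 and 5.37 FPKM in KO and 10.4, 7.14 and 7.95 FPKM in WT, a log2 difference of −0.74 (SE 0.202, edgeR adjusted p = 0.182). Every KO library was below every WT library for these genes, but Cd38 was lowest in KO replicate 1 and not in replicates 2 and 3.

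The remaining surface members differed less. Fcrl1, a relative of the Fc receptors, had a log2 difference of −0.55 (SE 0.279), with KO replicate 1 inside the WT range. Cd24a, the heat-stable antigen that red-cell precursors and immature leukocytes also carry, was the most abundant member by far, at 442, 375.0 and 363 FPKM in KO and 494, 520.2 and 586 FPKM in WT. Its groups did not overlap, and the log2 difference was −0.37 (SE 0.208, edgeR adjusted p = 0.509). Cd37, a tetraspanin of leukocytes, was at 43.5, 53.3 and 56.2 FPKM in KO and 47.9, 44.7 and 45.2 FPKM in WT, with overlapping groups and a log2 difference of 0.11 (SE 0.136, edgeR adjusted p = 0.82).

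The 4 receptors for survival, costimulation and homing were lower in every KO library than in any WT library, as were 13.7% of all genes. Tnfrsf13c, the receptor for the survival factor BAFF (chr15:82221743-82224353), was at 2.22, 2.09 and 2.01 FPKM in KO and 6.71, 5.12 and 5.19 FPKM in WT. Its log2 difference of −1.38 (SE 0.22, edgeR adjusted p = 0.148) was the lowest of the members and moved only between −1.49 and −1.27 when single libraries or KO replicates 2 and 3 were left out. Cxcr5, the homing receptor for B-cell follicles, was at 2.28, 1.28 and 1.69 FPKM in KO and 4.77, 3.29 and 3.85 FPKM in WT, a log2 difference of −1.04 (SE 0.27, edgeR adjusted p = 0.17). The costimulatory receptor Cd40 was at 1.64, 1.41 and 1.32 FPKM in KO and 3.06, 2.37 and 2.17 FPKM in WT, a log2 difference of −0.72 (SE 0.248, edgeR adjusted p = 0.26).

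Ccr7, which guides lymphocytes into lymph nodes and is also carried by T and dendritic cells, was at 2.05, 1.36 and 1.02 FPKM in KO and 3.81, 2.51 and 3.02 FPKM in WT, a log2 difference of −0.91 (SE 0.335, edgeR adjusted p = 0.291). All 4 receptors were at low levels, below 7 FPKM in each library.

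All 7 transcription factors and coactivators had log2 differences below 0, with a median of −0.97. Spib, an Ets factor related to PU.1 (chr7:44525993-44532071), was at 12.9, 12.2 and 13.8 FPKM in KO and 34.7, 27.4 and 30.7 FPKM in WT. Pou2af1, the coactivator OBF-1 that works with octamer-binding factors (chr9:51213708-51240080), was at 9.68, 10.3 and 11.2 FPKM in KO and 25.6, 23.1 and 22.3 FPKM in WT. Both genes separated the groups with little spread in either, with log2 differences of −1.23 (SE 0.139) for Spib and −1.19 (SE 0.131) for Pou2af1. Their edgeR adjusted p of 0.0718 was shared with Cd72 as the smallest of the members, and over the alternatives that of Spib ranged from 2.96e-13 to 0.294.

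Bach2, a repressor of plasma cell differentiation, was at 1.35, 1.28 and 1.40 FPKM in KO and 4.18, 2.76 and 3.17 FPKM in WT, a log2 difference of −1.30 (SE 0.19, edgeR adjusted p = 0.11). Ikzf3, the zinc-finger factor Aiolos, was at 1.45, 1.53 and 1.71 FPKM in KO and 3.59, 2.50 and 3.09 FPKM in WT, a log2 difference of −0.97 (SE 0.175, edgeR adjusted p = 0.148). Foxo1, a target of PI3-kinase signalling used by many tissues, was at 2.93, 2.54 and 2.24 FPKM in KO and 4.39, 3.36 and 4.18 FPKM in WT, a log2 difference of −0.55 (SE 0.177, edgeR adjusted p = 0.236). The KO and WT libraries did not overlap for these 3 factors. They did overlap for Pou2f2, which encodes the octamer factor Oct-2 (log2 difference −0.31, SE 0.198), and for Bcl11a, a zinc-finger factor of B-cell and dendritic-cell development (log2 difference −0.29, SE 0.165).

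Ralgps2, an exchange factor for the small GTPase Ral, stood outside these roles. It was at 2.03, 2.07 and 2.26 FPKM in KO and 4.58, 3.27 and 3.44 FPKM in WT, a log2 difference of −0.82 (SE 0.164, edgeR adjusted p = 0.148), with no overlap between the groups.

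Because several members encode or respond to DNA-binding factors of B cells, the 250 bases upstream of the RefSeq start (GRCm38.p6) are shown for the 3 members with the smallest adjusted p and for Tnfrsf13c, the member with the lowest log2 difference. They lie at chr7:44532072-44532321 on the minus strand for Spib, chr9:51213440-51213689 on the plus strand for Pou2af1, chr4:43454627-43454876 on the minus strand for Cd72 and chr15:82224381-82224630 on the minus strand for Tnfrsf13c. Each is written 5′ to 3′ on the strand of its gene, and capitals mark a PU box in Cd72 (as its reverse complement) and an E-box in Tnfrsf13c.
Spib: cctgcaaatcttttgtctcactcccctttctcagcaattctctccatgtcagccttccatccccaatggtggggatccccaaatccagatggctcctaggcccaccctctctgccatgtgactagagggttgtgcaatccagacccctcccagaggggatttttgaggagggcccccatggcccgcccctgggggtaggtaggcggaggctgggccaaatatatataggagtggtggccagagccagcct
Pou2af1: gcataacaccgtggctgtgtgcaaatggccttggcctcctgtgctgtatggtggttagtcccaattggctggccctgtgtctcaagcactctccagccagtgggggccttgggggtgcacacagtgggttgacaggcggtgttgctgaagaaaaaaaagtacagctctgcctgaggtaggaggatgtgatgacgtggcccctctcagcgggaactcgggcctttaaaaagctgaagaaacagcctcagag
Cd72: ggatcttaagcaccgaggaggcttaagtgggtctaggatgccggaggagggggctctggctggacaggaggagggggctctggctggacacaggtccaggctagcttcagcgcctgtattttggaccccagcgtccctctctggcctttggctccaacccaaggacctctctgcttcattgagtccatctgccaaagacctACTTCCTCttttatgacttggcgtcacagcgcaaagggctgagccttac
Tnfrsf13c: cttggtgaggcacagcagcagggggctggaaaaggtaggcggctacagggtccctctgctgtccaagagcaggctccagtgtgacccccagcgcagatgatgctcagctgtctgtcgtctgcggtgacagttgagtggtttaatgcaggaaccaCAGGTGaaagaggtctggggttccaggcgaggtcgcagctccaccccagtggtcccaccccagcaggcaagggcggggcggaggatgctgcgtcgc

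Of the 35 members, 26 matched a RefSeq promoter and gave 31 windows, since some genes have several starts. Each window was searched on both strands for 4 motifs, none of which overlapped another in these windows. The octamer ATGCAAAT occurred in 1 window, that of Blnk, beside 1.6% of 32851 mouse promoters. The PU box GAGGAAGT, a form of the site read by PU.1 and its relatives, occurred in the windows of Cd37, Cd72 and Fcrl1, beside 2.44% of all promoters. The EBF motif, TCCC and GGGA with any 2 bases between them, occurred for Cd22 and Foxo1, beside 0.779% of all promoters. The E-box CAGGTG occurred in 14 of the 31 windows (45.2%) of 13 genes, Cd79a, Blnk, Tnfrsf13c and Plcg2 among them, beside 17.2% of all promoters. Such matches are a description of the letters in these windows, and genes with and without the E-box occurred on both sides of 0.

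The KO libraries differed among themselves in a way that depended on the member. Expressed as a percentage of the WT mean, the B-cell centred members had a median of 51.8% in KO replicate 1, 37.5% in KO replicate 2 and 40.1% in KO replicate 3. For 12 of these 20 genes, Cd79a, Ms4a1 and Fcer2a among them, the mean of KO replicates 2 and 3 was under 75% of KO replicate 1, down to 34.9% for Fcer2a and 51.5% for Ms4a1. In 9 members, by contrast, the mean of KO replicates 2 and 3 lay within 15% of KO replicate 1, and these included Cd72, Spib, Pou2af1, Tnfrsf13c, Bach2, Ikzf3 and Ralgps2 (both limits were set after the values were seen). With KO replicates 2 and 3 counted as 1 sample, this difference rests on 1 KO sample against another and has no test. Neither the count of 12 nor that of 9 was made over all genes. Whether these counts are particular to the members was therefore not tested.

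**Figure D3:**
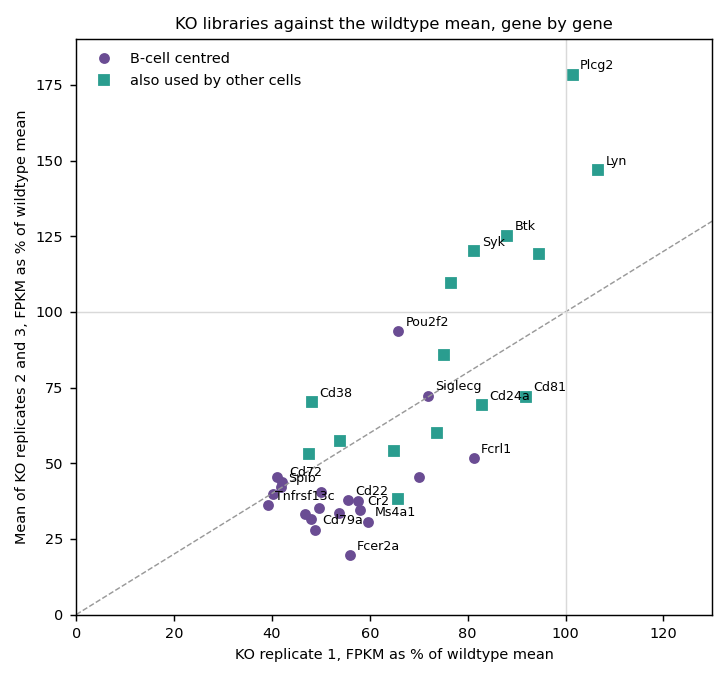
Level of each member as a percentage of its WT mean, in KO replicate 1 (x axis) against the mean of KO replicates 2 and 3 (y axis), with 1 point per gene coloured by breadth of use and a line of equal values. Spib and Cd72 lie near the line, Cd79a, Ms4a1 and Fcer2a lie under it, and Plcg2 and Lyn lie above it.

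KO replicate 1 was itself below every WT library in 32 of the 35 members, and was within the WT range in 2 of the members, Plcg2 and Fcrl1. The share of all genes with KO replicate 1 below every WT library was not counted. As a median difference from the WT mean in log2(FPKM + 0.1), KO replicate 1 was at −0.73 over the members and −0.077 over all genes tested. Set alone against the 3 WT libraries, it gave a median log2 difference of −0.68 over the members, with 19 lower at an unadjusted p under 0.05 in edgeR, beside 4.51% of all genes, and none passing the adjusted threshold, beside 0.0716% of all genes. Without it, KO replicates 2 and 3 as 1 sample gave a median of −1.16, with 27 lower at an unadjusted p under 0.05, beside 9.86% of all genes. At the adjusted threshold 16 members passed, 15 lower beside 1.29% of all genes and Plcg2 higher beside 2.68%, so more genes of the whole table were called in this fit as well. In both of these fits the lone KO sample is assumed to vary as the WT libraries do.

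Other genes of the pathway, which include ubiquitous enzymes of the RAS, PI3-kinase and NF-κB branches, were counted the same way. Of 46 such genes, all tested, 6 were lower and 13 higher at an unadjusted p under 0.05 (edgeR, 5 samples), beside 6.12% and 7.62% of all genes. At an adjusted p under 0.05 in the 6 libraries, 5 were lower and 2 higher, beside 1.46% and 2.74% of all genes. The median log2 difference was 0.15. Pirb, an inhibitory receptor that myeloid cells share with B cells, was at 64.2, 99.3 and 100.4 FPKM in KO and 43.3, 44.2 and 46.4 FPKM in WT, a log2 difference of 0.89 (SE 0.183, edgeR adjusted p = 0.148). Mapk3, the kinase ERK1, was at 71.8, 76.6 and 72.2 FPKM in KO and 47.6, 51.8 and 47.8 FPKM in WT, a log2 difference of 0.59 (SE 0.133, edgeR adjusted p = 0.151). Pirb and Mapk3 did not overlap between the groups and were the genes called higher in the 6 libraries.

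Genes of earlier B-cell stages were also lower. Of 12 pro-B and pre-B markers tested, 10 were lower at an unadjusted p under 0.05 (edgeR, 5 samples) and none higher, beside 6.12% and 7.62% of all genes. Their median log2 difference was −1.42, and in 10 every KO library lay below every WT library, as in 13.7% of all genes. The summed level of the 14 listed markers was 57.5, 60.3 and 61.8 FPKM in KO and between 109.8 and 124.2 FPKM in WT. The list's median difference from the WT mean in log2(FPKM + 0.1) was −1.20 in KO replicate 1 and −1.46 in each of the other KO libraries. Vpreb3, a protein of the pre-B receptor pathway, had a log2 difference of −1.63 (SE 0.18, edgeR adjusted p = 0.0718), and Dntt, the enzyme that adds nucleotides at rearranging receptor genes, one of −1.35 (SE 0.171, edgeR adjusted p = 0.0718). The B-lineage factors Pax5 (log2 difference −1.55) and Ebf1 (log2 difference −1.44) were among 3 of 9 such factors lower at an unadjusted p under 0.05, while Spi1, which encodes PU.1 and is high in myeloid cells, was higher (log2 difference 0.73). Of 10 plasma cell markers, 4 were lower and none higher at that threshold, with a median of −0.48.

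Markers of other cell types moved beside the members, and their part in the members' differences was not tested. For the counts below, 6.12% of all genes were lower and 7.62% higher at an unadjusted p under 0.05 (edgeR, 5 samples). Neutrophil markers were higher, 10 of 12 at an unadjusted p under 0.05 (edgeR, 5 samples). At an adjusted p under 0.05 in the 6 libraries 6 of 12 were higher, beside 2.74% of all genes. Their summed level was 62544, 51067 and 52262 FPKM in KO and between 27063 and 43842 FPKM in WT. Erythroid markers were lower, 7 of 10 at an unadjusted p under 0.05, with a summed level of 60739.5, 25239 and 24973 FPKM in KO and between 71737 and 108609 FPKM in WT. In the erythroid sum KO replicate 1 again lay between the WT libraries and the other KO libraries, as it did for Cd79a, Ms4a1 and Fcer2a. Of 15 T and NK cell markers 5 were lower and 1 higher, of 8 plasmacytoid dendritic cell markers 1 was lower, and of 12 macrophage and monocyte markers 1 was lower and 2 higher, all at an unadjusted p under 0.05. Their median log2 differences were −0.39, −0.36 and −0.039, respectively. The summed level of the T and NK cell markers did not follow their median. It was 108.4, 125.8 and 128.3 FPKM in KO and between 90.2 and 110.0 FPKM in WT. Among the 15 markers 14 had a log2 difference below 0. That of Nkg7 was above 0, at 0.57 (SE 0.161, edgeR adjusted p = 0.19).

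Of 12 chondrocyte markers tested none passed an unadjusted p of 0.05 in edgeR on the 5 samples. None passed the adjusted threshold in the 6 libraries or with DESeq2, and the median was 0.060 in the 5 samples but −0.12 in the 6 libraries. The KO libraries were not alike here. The list's median difference from the WT mean in log2(FPKM + 0.1) was 0.51 in KO replicate 1. It was −0.44 and −0.32 in KO replicates 2 and 3, and between −0.15 and 0.19 in the WT libraries. The summed level of the 15 listed markers was 1475 FPKM in KO replicate 1, 670 and 679 FPKM in KO replicates 2 and 3 and between 663 and 878 FPKM in WT, KO replicate 1 being above every other library. Of 10 osteoblast and osteocyte markers none passed an unadjusted p of 0.05, and of 8 fibroblast and marrow stroma markers 3 were lower at that threshold, beside 6.12% of all genes. No marker of any of these lists was at 0 in every library.

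**Figure D4:**
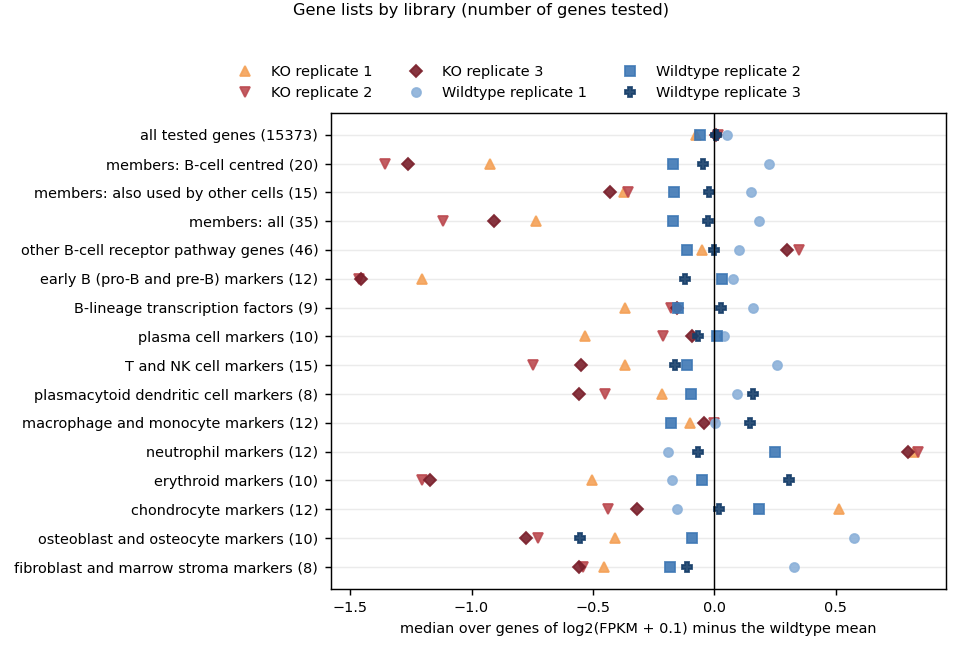
Median over the genes of each list of log2(FPKM + 0.1) minus the WT mean (x axis) in each of the 6 libraries, with 1 marker per library and the number of genes tested beside each list name. The KO medians of the B-cell centred members (−0.92, −1.36 and −1.26) and of the early B markers (−1.20, −1.46 and −1.46) lie left of every WT median. So do those of the erythroid markers (−0.50, −1.21 and −1.17). The same holds for the plasma cell, T and NK cell, plasmacytoid dendritic cell and stroma markers, the B-lineage factors and the members that other cells also use. The KO medians of the neutrophil markers (0.82, 0.84 and 0.80) lie furthest right.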

How the data were processed

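Total RNA of articular cartilage (3 KO and 3 WT libraries, grouped by their labels) was poly(A)-selected and sequenced in pairs of 150 bases. Per the submitters' processing notes, cutadapt 1.9, HISAT2 2.0.4, UMI-tools, StringTie 1.3.4d, DESeq2 and edgeR were used, and their order, settings and the genome build are not given in the sources used here (gene positions match GRCm38). The authors deposited 1 table with a FPKM value and an estimated count per gene and library; the deposited estimated counts are whole numbers in which small values pile up at 4, so they may have been scaled or rounded. Every column of per-sample values was used.

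The members and lists were chosen with earlier results of these data known. All 35 members were named, with their levels in each library where the unadjusted p was under 0.05 or the mean was at least 20.0 FPKM. Genes averaging 0.5 FPKM or more were tested by edgeR 4.0.16 (quasi-likelihood, robust, TMM scaling, R 4.3.3), with Benjamini-Hochberg adjustment over all 15373 genes, and the test was tried first on simulated data. KO replicates 2 and 3 entered as their mean count. Alternatives used DESeq2 1.42.0, limma 3.58.1 on log2 FPKM, other filters and scaling, and left-out libraries. Deviations of same-numbered libraries from their group means correlated at −0.21, −0.18 and 0.0014, which gave no sign of pairing by number. With so few libraries, and KO replicates 2 and 3 close to each other, these correlations cannot exclude pairing. Counting floors cover counting error only. Promoter sequences are from RefSeq. Values of the targeted gene and of some other genes are not reported here.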

Additional observations from a re-analysis of the deposited data

How the results depend on the processing

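There were 16 alternatives, or 15 for members not tested at a minimum mean of 5 FPKM. Over these, 32 members kept the sign of their log2 difference, 29 of them lower in KO. The signs of 3 members near 0 turned. Syk was at −0.028 with a minimum mean of 5 FPKM, −0.011 and −0.012 with limma on log2(FPKM + 1) and log2(FPKM + 0.1), −0.0073 to 0.23 when a library was left out and −0.21 without KO replicates 2 and 3. Btk was at −0.10 without KO replicates 2 and 3, and Pik3ap1 ranged from −0.15 to 0.10 when a library was left out, the highest being without KO replicate 1. No member passed the adjusted threshold in edgeR on the 5 samples, but 15 did with the 6 libraries as labelled, 13 with no filter on low values and 19 with DESeq2. The cause of the difference between edgeR and DESeq2 was not tested. Over all genes the counts were 0 in edgeR on the 5 samples, 645 with 6 libraries, 188 with no filter, 879 with DESeq2, 610 without KO replicate 1, 11 without KO replicates 2 and 3, and 3 or fewer in the other fits. Leaving out a single library gave 0 to 16 members, 16 being without KO replicate 1. The 24 members lower at an unadjusted p under 0.05 (6.12% of all genes) became 13 with a minimum mean of 5 FPKM (6.88% of all genes), which left 21 members to test, 19 to 27 when a library was left out (4.04% to 9.86%) and 19 without KO replicates 2 and 3 (4.51%). The median log2 difference of −0.91 became −1.11 with a minimum of 5 FPKM, −0.66 with limma on log2(FPKM + 1), −1.16 to −0.76 when a library was left out and −0.68 without KO replicates 2 and 3.

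With the replicate number as a block in the 6 libraries, 0 members passed the adjusted threshold in edgeR (26 were lower at an unadjusted p under 0.05, beside 9.17% of all genes) and the median was −0.95. Whether the numbers pair the samples is not known. A fit without the robust prior, added after seeing the data, gave 0 members, 24 and −0.91.

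With 2 KO and 3 WT samples, an adjusted p near the threshold moves with 1 library.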
